A study of Homo sapiens with 13 samples.

Results

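The genes described here carry out or control the breakdown of fatty acids: uptake, activation to acyl-CoA, transfer into mitochondria on carnitine, β-oxidation in mitochondria and in peroxisomes, and the transcriptional regulators PPARA and PPARGC1A. They were taken from a list of 35 symbols, and a gene counted as measured where an array row carried its symbol and no other. 32 of the 35 were measured, each by 1 row, among 18377 genes with such a row. FABP1, the liver fatty acid binding protein, and CPT1B, the muscle carnitine palmitoyltransferase, had rows shared with other symbols, and these 2 genes and ACSL3, an acyl-CoA synthetase, are not analysed here.

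RNA came from 13 culture flasks of human cells, 1 Affymetrix whole-transcript array per flask. HepG2 is a hepatoblastoma line. HepG2S1 is described in the labels as made from it by raising the concentration of sorafenib, a kinase inhibitor used against liver cancer, over months, and as then kept in the drug. 3 flasks held HepG2 without the drug at 20% O2. 4 flasks held HepG2S1 with 6 µM sorafenib at 20% O2, 3 held HepG2S1 withdrawn from sorafenib at 20% O2, and 3 held HepG2S1 with 6 µM sorafenib at 2% O2. All were harvested after 72 h in the same insulin- and dexamethasone-containing medium. HepG2S1 enters as 1 resistant line, so that every comparison with HepG2 changes the line and its drug history together. Its descent from HepG2 could not be checked in these data, and the markers given below were far apart between the lines.

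In liver cells, long-chain fatty acids are joined to coenzyme A, carried into mitochondria by the carnitine shuttle, and shortened by repeated rounds of dehydrogenation, hydration, a second oxidation and thiolysis. Very long, branched and bile acid side chains are shortened first in peroxisomes, whose opening step is catalysed by acyl-CoA oxidases. PPARA is a nuclear receptor that is activated by fatty acids and drives many of these genes in liver during fasting, together with the coactivator encoded by PPARGC1A.

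3 stretches of promoter are shown because they belong to members that the results below turn on. HADHA and HADHB, the α and β subunits of the mitochondrial trifunctional protein, lie head to head on chromosome 2, with starts 307 bases apart at positions 26244632 and 26244939. The stretch shown for them is the part that both promoter windows share. ACSL5 had the largest fall of all members, and ACADSB the largest response to low oxygen. Sequences are RefSeq's for GRCh38.p14, on the plus strand, at chr2:26244689-26244882, chr10:112375018-112375117 and chr10:123008806-123008905. Capitals mark the nuclear receptor half-site AGGTCA in ACSL5, 223 bases before the earlier of the 2 starts given a promoter window, and the core GCGTG in ACADSB, 168 bases before its start. That ACSL5 start, at 112375268, and the whole stretch lie inside the annotated gene, which begins at 112374116.
HADHA-HADHB: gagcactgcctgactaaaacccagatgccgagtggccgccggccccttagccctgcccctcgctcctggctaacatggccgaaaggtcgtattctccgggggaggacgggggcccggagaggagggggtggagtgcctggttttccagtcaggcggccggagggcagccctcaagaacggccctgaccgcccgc
ACSL5: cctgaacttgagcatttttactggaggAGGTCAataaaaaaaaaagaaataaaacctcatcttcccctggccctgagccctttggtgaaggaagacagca
ACADSB: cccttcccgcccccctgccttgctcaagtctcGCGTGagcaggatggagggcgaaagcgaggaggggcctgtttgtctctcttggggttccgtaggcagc

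RefSeq promoter windows of 300 bases, 250 before and 50 after a start, were given for 26 of the 32 measured members, 45 windows in all, and were searched on both strands. The half-site AGGTCA, a unit of the element that PPARA binds with its partner, was found in 1 of the 45 windows, that of ACSL5, and in 13.8% of all 35116 windows. An exact match to that element, AGGTCA repeated after any 1 base, was in 0 member windows and in 8 of all 35116 windows. Looser matches were not searched. With so few exact matches anywhere, their absence from the 45 windows does not set the members apart. The extended half-site TCAAGGTCA, which contains AGGTCA, was also in 0 member windows and in 0.353% of all windows. GCGTG and ACGTG, the cores that hypoxia-inducible factors bind, were in 20 and 6 of the 45 member windows and in 36.5% and 21.4% of all windows. The last 2 cores were added to the search after the expression values had been seen. GCGTG was in windows of 18 members, among them ACADSB, which rose at 2% O2, and CPT1A and PPARGC1A, which fell. A link between this core and those changes was not tested. These matches describe letters in a short window, not binding.

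Values are log2 signals from RMA, and a positive log2 fold change means that the group named first had the higher signal. Groups were compared in limma over all 18377 genes, and a gene was called at a Benjamini-Hochberg adjusted p under 0.05. The flasks were separate, but nothing says that they came from separate cultures, and the p-values cover only the variation from flask to flask. Array medians lay between 7.30 and 7.42. The median lower quartile of the arrays, 5.76, served as a floor below which signals flatten. All 12 hepatocyte markers were lower in HepG2S1 than in HepG2, with and without sorafenib: their mean level was 12.74 to 12.78 on the HepG2 arrays and 5.69 to 5.84 on the 10 HepG2S1 arrays, and 6 of the 12 lay below the floor in each HepG2S1 group. Markers of the labelled cell of origin were thus low or below the floor on the HepG2S1 arrays. In HepG2S1 with sorafenib at 20% O2 against HepG2, 3 of 10 fibroblast and stellate markers were higher (DCN, LUM and FAP) and 1 lower (ACTA2), 3 of 4 measured squamous epithelial markers were higher, and 1 of 9 endothelial and blood markers was higher and 4 lower. In withdrawn cells against HepG2 these counts were 3 higher and 2 lower, 4 higher, and 1 higher and 4 lower. Among all genes 30.1% were higher and 27.2% lower with the drug, and 29.6% and 27% in withdrawn cells. The 3 of 10 fibroblast and stellate markers called higher lay close to these shares. The fibroblast list mean was 6.88 to 7.02 on the HepG2 arrays and 8.11 to 8.25 on all HepG2S1 arrays, and the squamous list mean was 6.25 to 6.42 and 8.50 to 9.36. The fibroblast list did not rise as a group. Its median log2 fold change against HepG2 was 0.03 with the drug and -0.01 in withdrawn cells, with 5 genes above 0 and 5 below in each. The part of these markers in the results below was not tested, and fewer cells of a type and less RNA per cell cannot be told apart in such samples.

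The first comparison asked how resistant cells under the drug differed from the parental line. Of the 32 measured members 20 were lower in HepG2S1 with sorafenib than in HepG2, 6 were higher and 6 were not called. Over all genes 27.2% were called lower and 30.1% higher, so that lower calls were more common among the members than in the background and higher calls less common. 9 members were called lower by 2-fold or more and none was called higher by as much. Among all 18377 genes 1343 were called lower by 2-fold or more and 1553 higher. The median log2 fold change was -0.50 over the members and 0.01 over all genes. All 7 peroxisomal enzymes, all 3 measured acyl-CoA synthetases, CD36 and both regulators were lower. The 19 measured genes of the mitochondrial arm were mixed, with 6 higher, 7 lower and 6 not called.

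**Figure D1:**
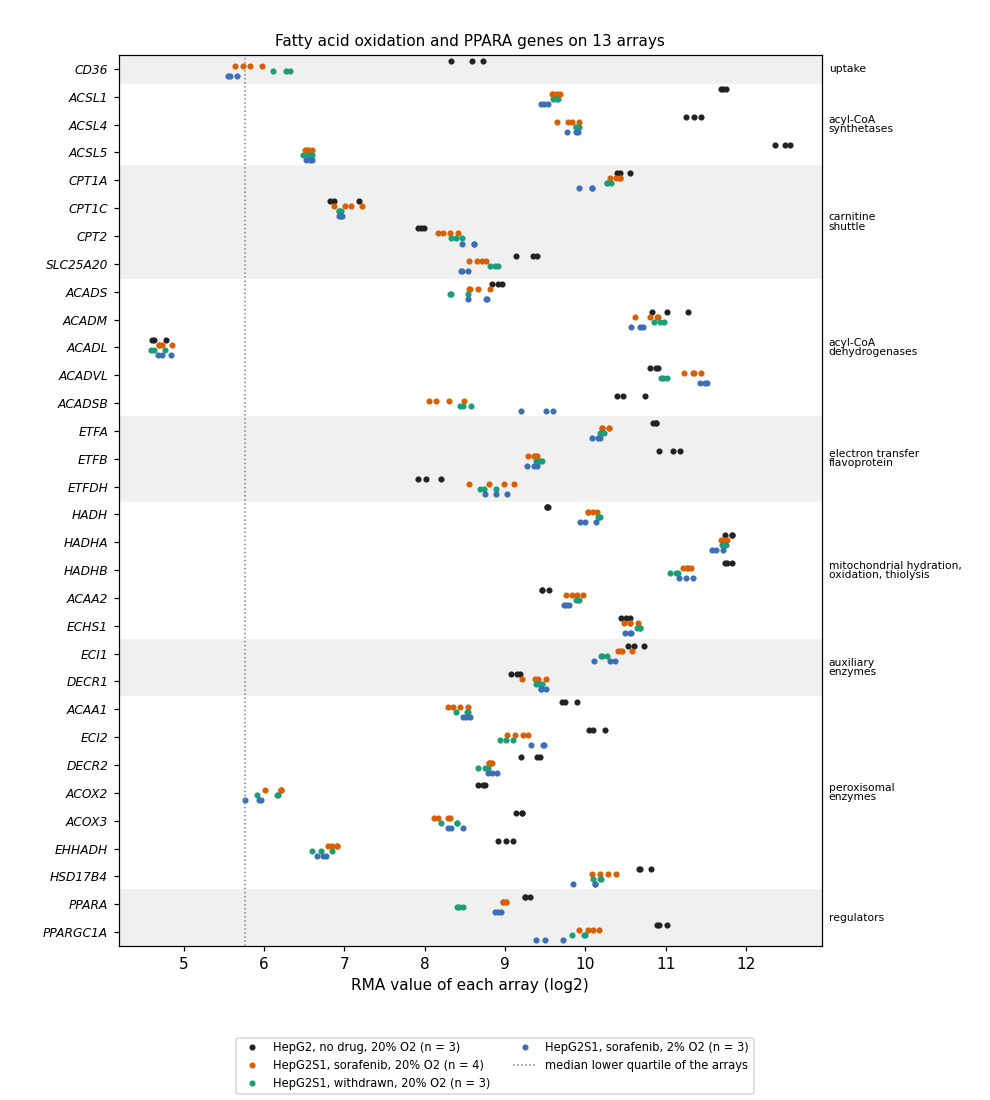
Log2 RMA value (x axis) of each of the 32 measured members (y axis, ordered by role) on each of 13 arrays, with 1 point per array coloured by group; the dotted line is the median lower quartile of the arrays, 5.76. The black HepG2 points lie far to the right of the HepG2S1 points for ACSL5, CD36, ACOX2, ACADSB, EHHADH and ACSL1, whereas HADHA, CPT1A and ECHS1 hold the 4 groups close together.

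CD36 and the 3 measured acyl-CoA synthetases were lower in HepG2S1 by 2.93-fold to 60.3-fold. CD36, a membrane protein that takes up long-chain fatty acids, had values of 8.73, 8.59 and 8.33 on the HepG2 arrays and 5.98, 5.63, 5.83 and 5.73 on the HepG2S1 arrays with sorafenib. The groups did not overlap, and the HepG2S1 values sat at the floor, which limits the fold. The log2 fold change was -2.75 ± 0.09 (SE; limma adjusted p = 7.23e-13). ACSL1, the main acyl-CoA synthetase of liver, had values of 11.74, 11.71 and 11.69 in HepG2 and 9.68, 9.60, 9.64 and 9.58 in HepG2S1. ACSL4, which prefers arachidonate, had 11.44, 11.35 and 11.25 in HepG2 and 9.92, 9.65, 9.78 and 9.83 in HepG2S1. Both dropped without overlap, ACSL1 by 4.26-fold and ACSL4 by 2.93-fold. ACSL5, a mitochondrial and endoplasmic reticulum acyl-CoA synthetase, went from 12.36, 12.54 and 12.49 in HepG2 to 6.54, 6.51, 6.59 and 6.55 in HepG2S1. This was the largest difference of any member, 60.3-fold, with a log2 fold change of -5.91 ± 0.05 (limma adjusted p = 2.29e-19). Its HepG2S1 values lay above the floor and varied by less than 0.10 between the 4 arrays. They were 6.48 to 6.60 in withdrawn cells and 6.53 to 6.60 at 2% O2. Whether this steady level was expression or the background of the row itself was not tested, and background would limit the fold.

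The carnitine shuttle changed little by comparison. CPT1A, the outer-membrane carnitine palmitoyltransferase that commits acyl-CoA to mitochondrial oxidation in liver, had values of 10.43, 10.39 and 10.55 in HepG2 and 10.38, 10.43, 10.30 and 10.42 in HepG2S1 with sorafenib. These ranges overlapped, and the log2 fold change of -0.07 (95% interval -0.20 to 0.05) was not called. CPT1C, the brain-type isoform, also overlapped between groups (0.09 ± 0.09). CPT2, which regenerates acyl-CoA inside the mitochondrion, was higher, with 7.92, 7.95 and 7.99 in HepG2 against 8.32, 8.41, 8.16 and 8.23 in HepG2S1. Its log2 fold change was 0.33 ± 0.06 (limma adjusted p = 0.000338). SLC25A20, the translocase that exchanges acylcarnitine for carnitine across the inner membrane, was lower by 1.54-fold (-0.63 ± 0.07).

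The acyl-CoA dehydrogenases, which open each mitochondrial round according to chain length, did not move together. ACADVL, the very-long-chain enzyme, was higher in HepG2S1, with 11.35, 11.44, 11.22 and 11.33 against 10.80, 10.90 and 10.88 in HepG2 (0.47 ± 0.06, limma adjusted p = 2.14e-06). ACADM, the medium-chain enzyme, had 11.27, 11.02 and 10.83 in HepG2 and 10.91, 10.62, 10.89 and 10.80 in HepG2S1. These overlapped, and its fall of 0.23 on the log2 scale was called narrowly (limma adjusted p = 0.0423). That call was lost in 8 of 20 alternatives, with adjusted p from 0.0506 to 0.272: in the fit of the 2 groups alone and without HepG2 replicate 1 or 2, sorafenib replicate 2 or 4, withdrawn replicate 1 or 2, or low-oxygen replicate 1. ACADS, the short-chain enzyme, was lower by 1.19-fold (-0.26 ± 0.08), which was not called without HepG2 replicate 1 (adjusted p = 0.0564). ACADL, the long-chain enzyme, lay between 4.59 and 4.85 on every array, below the floor, so that no level or change was measurable for it. ACADSB, which acts on short branched chains from isoleucine, stood apart from these with 10.74, 10.46 and 10.39 in HepG2 and 8.49, 8.05, 8.31 and 8.14 in HepG2S1. It was 4.86-fold lower, with no overlap (-2.28 ± 0.12, limma adjusted p = 8.07e-11).

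The electron transfer flavoprotein, which takes electrons from these dehydrogenases, and its oxidoreductase changed in opposite directions. ETFB, the β subunit, had 11.08, 10.92 and 11.18 in HepG2 and 9.38, 9.40, 9.36 and 9.29 in HepG2S1, a 3.25-fold difference (-1.70 ± 0.06, limma adjusted p = 1.54e-12). ETFA, the α subunit, was lower by 1.54-fold (-0.62 ± 0.05). ETFDH, which passes the electrons on to ubiquinone, was higher by 1.76-fold (0.81 ± 0.11, limma adjusted p = 1.31e-05). All 3 genes had groups that did not overlap.

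Later steps of the mitochondrial round rose slightly, fell slightly or were not called. HADHA had 11.73, 11.82 and 11.82 in HepG2 and 11.71, 11.76, 11.68 and 11.73 in HepG2S1, with overlap and a log2 fold change of -0.07 (95% interval -0.18 to 0.04) that was called under repeated quantile normalization alone (adjusted p = 0.0421). HADHB, its partner subunit across the promoter shown above, had 11.77, 11.82 and 11.73 in HepG2 and 11.32, 11.22, 11.27 and 11.26 in HepG2S1. It was lower without overlap (-0.51 ± 0.05, limma adjusted p = 6.38e-07). The difference HADHB minus HADHA was -0.02 ± 0.06 (SD, n = 3) in HepG2 and -0.45 ± 0.07 (SD, n = 4) in HepG2S1. An exact two-sided permutation test of that change of -0.43, which doubles the 1-sided value, gave p = 0.0571. This is the smallest value that such a test can give with 35 arrangements. The pair was chosen after its values were seen, so that this p-value adds no support. HADH, the medium- and short-chain hydroxyacyl-CoA dehydrogenase, was higher by 1.46-fold (0.55 ± 0.05). ACAA2, the mitochondrial thiolase, was higher by 1.3-fold (0.38 ± 0.06), and DECR1, the dienoyl-CoA reductase for unsaturated chains, by 1.18-fold (0.24 ± 0.06). ECHS1, the enoyl-CoA hydratase, and ECI1, the enoyl-CoA isomerase, were not called (0.06 ± 0.05 and -0.15 ± 0.07). ECI1 was called lower in 6 of 20 alternatives: with trend and robust moderation, under 75th percentile scaling and repeated quantile normalization, and without HepG2 replicate 2, sorafenib replicate 2 or low-oxygen replicate 2 (adjusted p 0.0314 to 0.0461).

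Every peroxisomal enzyme on the list was lower in HepG2S1, with log2 fold changes from -2.55 to -0.49 and a median of -0.96, against a median of -0.07 over the mitochondrial arm. ACOX2, the oxidase for branched chains and bile acid intermediates, had 8.66, 8.76 and 8.73 in HepG2 and 6.22, 6.01, 6.22 and 6.22 in HepG2S1, 5.85-fold lower (-2.55 ± 0.08, limma adjusted p = 1.65e-13). EHHADH, the L-bifunctional enzyme that is among the best-known PPARA targets, had 9.10, 8.92 and 9.01 in HepG2 and 6.91, 6.80, 6.91 and 6.85 in HepG2S1, 4.42-fold lower (-2.14 ± 0.07). Neither gene overlapped between groups, and ACOX2 came within 0.50 of the floor. ACAA1, the peroxisomal thiolase, had 9.71, 9.74 and 9.89 in HepG2 and 8.35, 8.54, 8.28 and 8.44 in HepG2S1 (-1.38 ± 0.07). HSD17B4, the D-bifunctional enzyme, changed less, from 10.82, 10.68 and 10.66 to 10.37, 10.08, 10.28 and 10.17 (-0.49 ± 0.08, limma adjusted p = 6.44e-05). ACOX3, a second branched-chain oxidase, and ECI2, an enoyl-CoA isomerase, both differed by -0.96 ± 0.07, and DECR2, the peroxisomal dienoyl-CoA reductase, by -0.53 ± 0.06. The mean level of the 7 genes was 9.53 to 9.57 on the HepG2 arrays and 8.19 to 8.32 over the 10 HepG2S1 arrays, whereas that of the 19 mitochondrial genes was 9.64 to 9.66 and 9.44 to 9.52.

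Both regulators were lower. PPARA had 9.25, 9.24 and 9.31 in HepG2 and 9.01, 8.97, 9.01 and 8.97 in HepG2S1 with sorafenib, a small but non-overlapping difference of -0.28 ± 0.05 (limma adjusted p = 7.04e-05). PPARGC1A had 11.01, 10.91 and 10.89 in HepG2 and 10.10, 10.03, 10.17 and 9.92 in HepG2S1, a difference of -0.88 ± 0.08 (limma adjusted p = 1.1e-07).

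**Figure D2:**
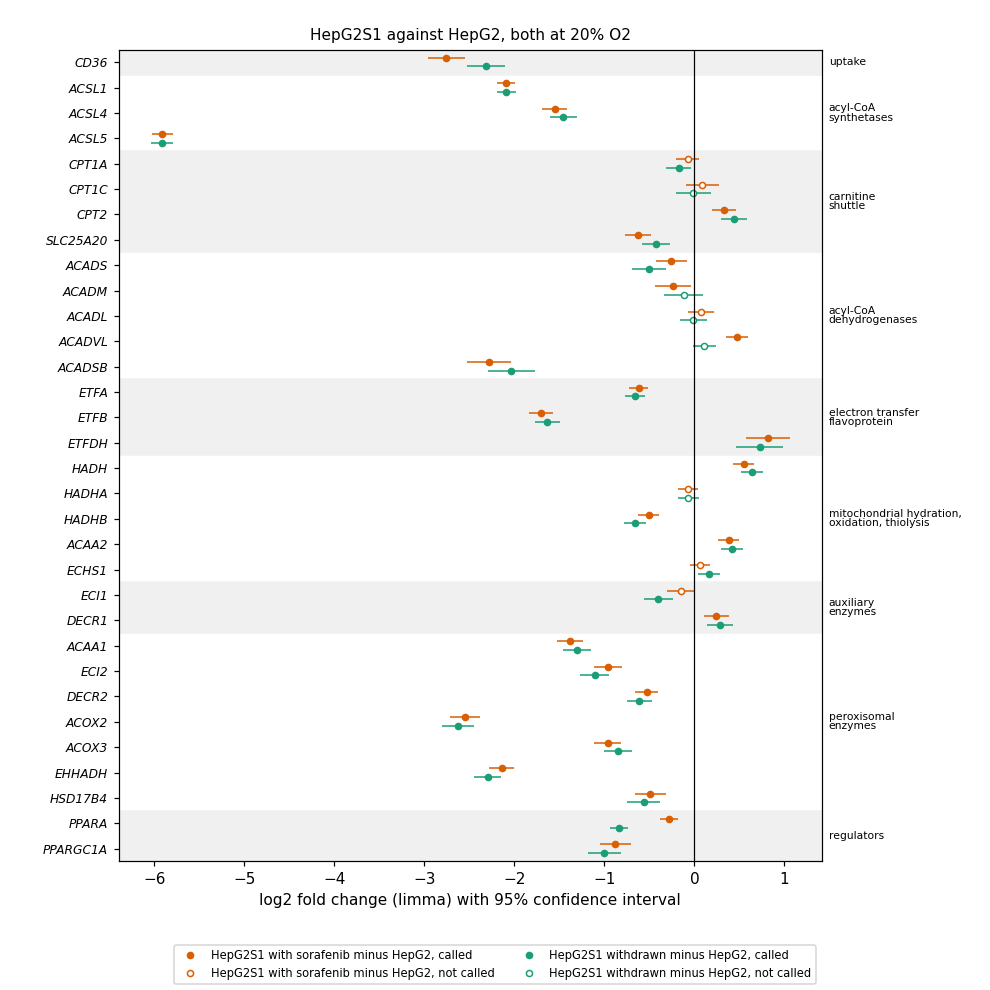
Log2 fold change with 95% confidence interval (x axis) for each measured member (y axis, ordered by role) in HepG2S1 with sorafenib (orange) and in withdrawn HepG2S1 (green), each minus HepG2; filled points were called at an adjusted p under 0.05 and open points were not. All 7 peroxisomal enzymes lie left of zero in both, from -2.55 to -0.49 with the drug, whereas the mitochondrial genes lie on both sides.

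Withdrawn HepG2S1 was compared with HepG2 to set 2 drug-free groups against each other. The same HepG2 arrays served as controls as in the first comparison, so that both sets of values are given side by side and the second is no independent repeat. Here 21 members were lower, 6 were higher and 5 were not called, against a background of 27% lower and 29.6% higher, and the median over the members was -0.59. ACSL5 differed by -5.92 without the drug and by -5.91 with it, ACSL1 by -2.09 in both, and CD36 by -2.32 and -2.75. ACOX2 differed by -2.63 and -2.55, EHHADH by -2.29 and -2.14, and ACADSB by -2.03 and -2.28. All 7 peroxisomal enzymes were lower again, with a median of -1.11. PPARA was at -0.84 ± 0.05 in withdrawn cells (limma adjusted p = 5.68e-10) and at -0.28 with the drug, and PPARGC1A was lower than in HepG2 by 2-fold in withdrawn cells (limma adjusted p = 5.43e-08) and by 1.84-fold with the drug.

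Within the mitochondrial arm of withdrawn cells 6 of 19 measured genes were higher and 8 lower than in HepG2. Over all genes 29.6% were higher and 27% lower, so that the higher calls of the arm lay close to the background share. CPT2 (0.44 ± 0.07), HADH (0.64 ± 0.06), ETFDH (0.73 ± 0.12), ACAA2 (0.42 ± 0.06) and DECR1 (0.29 ± 0.07) were higher, as they were with the drug. ECHS1 was also called higher (0.16 ± 0.06), a call lost in 5 of 20 alternatives, under 75th percentile scaling, repeated quantile normalization, and without HepG2 replicate 1 or withdrawn replicate 1 or 2 (adjusted p 0.0556 to 0.201). ACADVL, called higher with the drug, was not called in withdrawn cells (0.11), and ACADS was at -0.50 ± 0.09. CPT1A was called lower by 1.13-fold, which was lost in 4 of 20 alternatives, with array weights and without HepG2 replicate 3 or withdrawn replicate 2 or 3 (adjusted p 0.0513 to 0.113). HADHB (-0.66 ± 0.06) was lower, and HADHA (-0.07) was called under 75th percentile scaling and repeated quantile normalization alone (adjusted p 0.045 to 0.0462). Also called lower were ACADSB (-2.03 ± 0.12), ETFB (-1.63 ± 0.07), ETFA (-0.66 ± 0.05), SLC25A20 (-0.43 ± 0.07) and ECI1 (-0.40).

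Removing the drug from HepG2S1 at 20% O2 moved few members. 1 of 32 was higher in withdrawn than in sorafenib-treated cells, 4 were lower and 27 were not called, with a median of -0.02. Over all genes 10.1% were higher and 7.9% lower. The counts of 4 and 1 are too small to set the members apart from this background. The count lower was 2 without sorafenib replicate 2, where 1279 of 18377 genes were lower, and 2 without withdrawn replicate 1, where 1153 were. The count higher was 2 without sorafenib replicate 2 or HepG2 replicate 1 or 3. PPARA had the largest change: 8.40, 8.47 and 8.42 on the withdrawn arrays against 9.01, 8.97, 9.01 and 8.97 with the drug. The groups did not overlap, and PPARA was 1.47-fold lower after withdrawal (-0.56 ± 0.05, limma adjusted p = 2.78e-06). CD36, with 6.32, 6.27 and 6.11 after withdrawal against 5.98, 5.63, 5.83 and 5.73, was the only member that rose (0.44 ± 0.09, limma adjusted p = 0.00436), close to the floor in both groups. ACADVL fell by 0.36 on the log2 scale, to 10.97, 10.94 and 11.01 from 11.35, 11.44, 11.22 and 11.33 (limma adjusted p = 0.000429).

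2 further falls on withdrawal were less secure. ACADS was at 8.33, 8.31 and 8.54 after withdrawal and at 8.55, 8.81, 8.56 and 8.66 with the drug (-0.25 ± 0.08, limma adjusted p = 0.046). Its call was lost in 10 of 21 alternatives (adjusted p 0.0501 to 0.192): in the fits of the 2 groups or the HepG2S1 arrays alone, under repeated quantile normalization, and without sorafenib replicate 2, 3 or 4, withdrawn replicate 1 or 2, low-oxygen replicate 1 or HepG2 replicate 3. ECI1 was at 10.19, 10.26 and 10.21 after withdrawal and at 10.40, 10.58, 10.45 and 10.45 with the drug (-0.25 ± 0.07, limma adjusted p = 0.0216). It was not called without sorafenib replicate 2 or withdrawn replicate 1 or 3 (adjusted p 0.0612 to 0.0824). No peroxisomal enzyme was called, with log2 fold changes from -0.15 to 0.12. None of the acyl-CoA synthetases was called either, and ACSL5 stayed between 6.48 and 6.60 on the withdrawn arrays. In the same comparison 3 of the 4 squamous markers rose (KRT5 by 0.79 and SERPINB3 by 1.62), 2 of 10 fibroblast and stellate markers rose and 1 fell (log2 fold changes of the list from -0.35 to 0.82), 2 of 12 hepatocyte markers rose and 1 of 9 endothelial and blood markers fell. Their part in these values was not tested.

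Lowering oxygen from 20% to 2% in sorafenib-treated HepG2S1 also moved few members: 3 were higher, 3 lower and 26 not called, with a median of -0.04. Over all genes 8.99% were higher and 6.17% lower, close to the members' shares. The split of all calls depended on the scaling, at 1653 higher and 1133 lower as deposited and 1189 higher and 2529 lower after scaling to the 75th percentile, under which 2 members were higher and 10 lower. ACADSB rose most, from 8.49, 8.05, 8.31 and 8.14 to 9.51, 9.60 and 9.19. It was 2.28-fold higher without overlap (1.19 ± 0.12, limma adjusted p = 6.44e-06), and its 3 low-oxygen values remained below the lowest HepG2 value of 10.39. CPT2 was at 8.61, 8.61 and 8.46 against 8.32, 8.41, 8.16 and 8.23 (0.28 ± 0.06, limma adjusted p = 0.00918).

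CPT1A, at the entry to the shuttle, changed the other way, with 9.92, 10.08 and 10.08 at 2% O2 against 10.38, 10.43, 10.30 and 10.42 at 20% O2. It fell by 0.36 on the log2 scale (limma adjusted p = 0.000844). PPARGC1A was at 9.50, 9.38 and 9.72 against 10.10, 10.03, 10.17 and 9.92, 1.43-fold lower (-0.52 ± 0.08, limma adjusted p = 0.000535). PPARA was not called (-0.08, limma adjusted p = 0.248). Among peroxisomal enzymes ECI2 was higher, at 9.47, 9.48 and 9.33 against 9.28, 9.03, 9.13 and 9.22 (0.26 ± 0.07, limma adjusted p = 0.0262). ACOX2 was lower, at 5.76, 5.94 and 5.97 against 6.22, 6.01, 6.22 and 6.22 (-0.27 ± 0.08, limma adjusted p = 0.0276), near the floor. At 2% O2 1 hepatocyte marker fell, 1 fibroblast and stellate marker rose and 1 fell, and no marker of the other lists was called, and their part in these values was not tested. Neither the ECI2 nor the ACOX2 call was secure. ECI2 lost its call in 6 of 21 alternatives, under 75th percentile scaling, repeated quantile normalization, and without sorafenib replicate 2 or 3 or low-oxygen replicate 1 or 2 (adjusted p 0.0599 to 0.11). ACOX2 lost its call in 6 of 20, under repeated quantile normalization and without sorafenib replicate 1, 3 or 4 or low-oxygen replicate 1 or 2 (adjusted p 0.053 to 0.137).

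**Figure D3:**
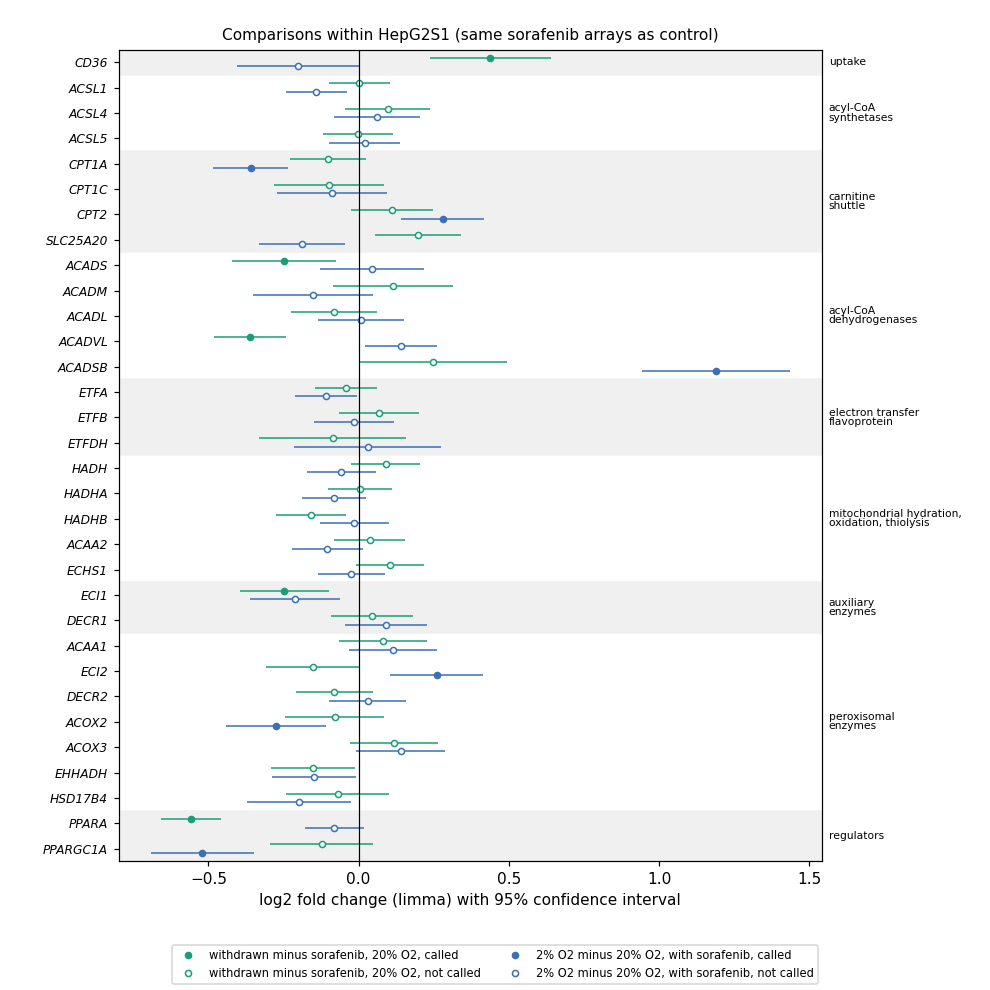
Log2 fold change with 95% confidence interval (x axis) for each measured member (y axis, ordered by role) after withdrawal (green) and at 2% O2 (blue), both against the same 4 HepG2S1 arrays with sorafenib at 20% O2; filled points were called and open points were not. Most members lie close to zero, and ACADSB at 2% O2 (1.19) is the one point beyond 1.

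Because withdrawal and low oxygen were both read against the same sorafenib arrays, the difference between them was tested by comparing the 2% O2 group with the withdrawn group directly, where drug and oxygen both differ. 5 members were higher at 2% O2 with the drug, 4 were lower and 23 were not called, against a background of 10.8% higher and 7.73% lower. All genes gave 1992 higher and 1420 lower as deposited and 1689 and 1802 after 75th percentile scaling, under which 4 members were higher and 7 lower. Of the markers, 3 of 4 squamous ones were lower at 2% O2 than after withdrawal (down to -1.16), 1 of 10 fibroblast and stellate ones was higher and 2 lower, 2 of 12 hepatocyte ones were lower and 1 of 9 endothelial and blood ones was higher (0.69). Their part in these values was not tested. ACADSB was higher by 0.94 ± 0.12 (limma adjusted p = 9e-05), with 9.51, 9.60 and 9.19 against 8.48, 8.57 and 8.43. ACADVL was at 11.51, 11.48 and 11.43 against 10.97, 10.94 and 11.01 (0.50 ± 0.06, limma adjusted p = 4.19e-05). PPARA was at 8.95, 8.91 and 8.87 against 8.40, 8.47 and 8.42 (0.48 ± 0.05, limma adjusted p = 1.14e-05). For ACADVL and PPARA the withdrawn arrays were the low ones among the 3 HepG2S1 groups, and for ACADSB the 2% O2 arrays were the high ones.

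CD36 was at 5.66, 5.55 and 5.57 at 2% O2 against 6.32, 6.27 and 6.11 after withdrawal, lower by 1.56-fold (limma adjusted p = 0.000407), with the low-oxygen mean below the floor. ECI2 was higher by 0.41 ± 0.08, with 9.47, 9.48 and 9.33 against 8.93, 9.01 and 9.10. SLC25A20 (-0.39 ± 0.07) and PPARGC1A (-0.40 ± 0.09) were lower at 2% O2. CPT1A was lower by 1.2-fold, which was not called without low-oxygen replicate 1 (adjusted p = 0.0571). ACADS was called higher (0.29 ± 0.09) although its arrays overlapped, and lost the call in 6 of 21 alternatives: under 75th percentile scaling, repeated quantile normalization, and without withdrawn replicate 1 or 2 or low-oxygen replicate 1 or 3 (adjusted p 0.0711 to 0.115).

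**Figure D4:**
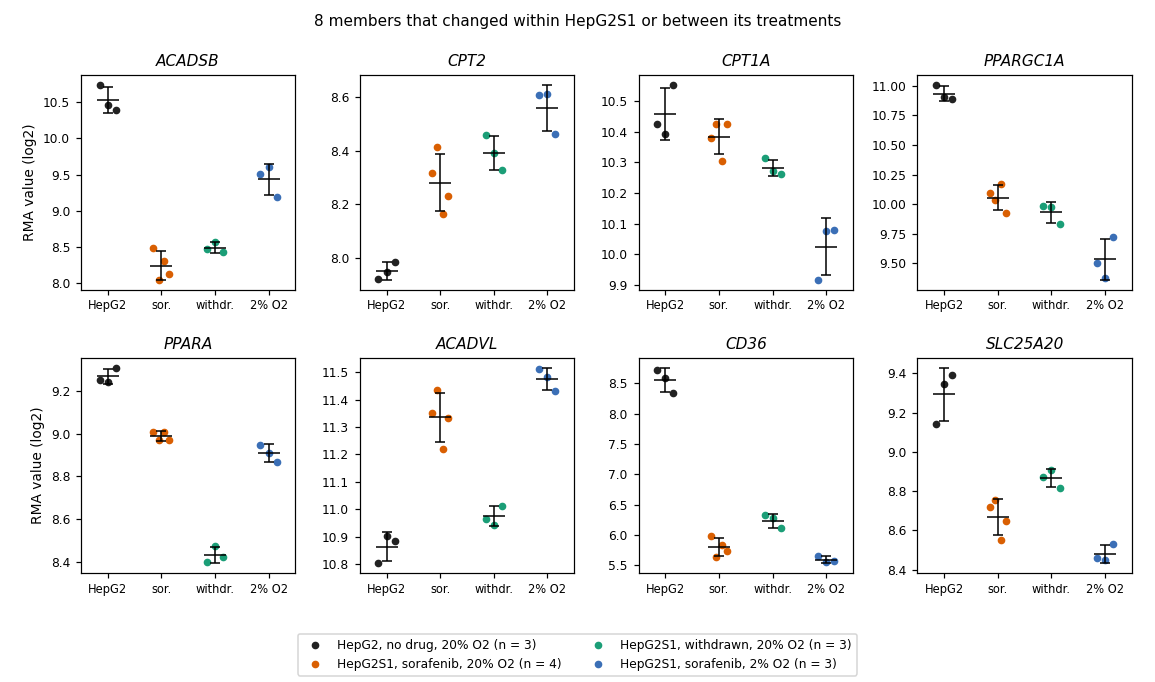
Log2 RMA value (y axis of each panel, scales differ) on each array of the 4 groups (x axis) for 8 members, with the group mean and SD in black. ACADSB was highest in HepG2 and next highest at 2% O2, PPARA was lowest after withdrawal (8.40 to 8.47), and PPARGC1A was lowest at 2% O2 (9.38 to 9.72).

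Other genes around the pathway were read from lists not chosen by how they moved in these comparisons, though earlier results of these data were known. Of 14 measured PPARA target genes outside the members, 2 were higher and 9 lower in HepG2S1 with sorafenib than in HepG2, with a median log2 fold change of -0.56. The 2 extremes lay on opposite sides. PLIN2, which coats lipid droplets, went from 12.41, 12.48 and 12.56 to 5.75, 5.74, 5.80 and 5.74, at the floor. PDK4, the kinase that inhibits pyruvate dehydrogenase, went from 5.89, 6.16 and 6.16 to 12.14, 12.11, 12.15 and 12.15 (6.07 ± 0.08, limma adjusted p = 5.3e-18). PDK4 was lower after withdrawal (-0.61 ± 0.08) and at 2% O2 (-0.95 ± 0.08) than with the drug at 20% O2. ANGPTL4, which inhibits lipoprotein lipase, was higher in HepG2S1 with sorafenib than in HepG2 (0.97 ± 0.10). It was higher still, relative to the drug at 20% O2, after withdrawal (0.55 ± 0.10) and at 2% O2 (2.03 ± 0.10). CREB3L3, a liver transcription factor, was lower in HepG2S1 (-2.17 ± 0.09). Of the 14 genes, 3 rose and 1 fell on withdrawal, and the same counts held at 2% O2. Among all genes 30.1% were higher and 27.2% lower in HepG2S1 with sorafenib than in HepG2. The shares were 10.1% and 7.9% on withdrawal and 8.99% and 6.17% at 2% O2. The lists below are set against the same shares.

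Among 23 other measured mitochondrial oxidation genes 11 were higher and 10 lower in HepG2S1 with sorafenib than in HepG2 (median 0.11). ACSM3 (-2.46 ± 0.12) and ACSF2 (-1.98 ± 0.07), acyl-CoA synthetases of mitochondria, were the most changed. On withdrawal 2 of the 23 rose and 5 fell, led by CRAT, carnitine acetyltransferase (-0.77 ± 0.07), and at 2% O2 2 rose and 4 fell. Among all genes 10.1% rose and 7.9% fell on withdrawal, and 8.99% rose and 6.17% fell at 2% O2. All 3 measured ketone body enzymes were higher in HepG2S1. OXCT1, which lets cells use ketone bodies and is scarce in liver, went from 6.94, 6.86 and 7.08 to 11.46, 11.33, 11.42 and 11.43 (4.45 ± 0.06, limma adjusted p = 1.89e-17).

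Of 12 other measured peroxisomal lipid genes 5 were higher and 5 lower in HepG2S1 than in HepG2 (median 0.05), in contrast to the 7 of 7 lower among the member enzymes. PECR, the peroxisomal trans-2-enoyl-CoA reductase, was lowest (-1.99 ± 0.05) and fell again on withdrawal (-0.70 ± 0.05), and ACBD5, an acyl-CoA binding protein of the peroxisomal membrane, was highest (1.63 ± 0.07). On withdrawal none of the 12 rose and 4 fell, and at 2% O2 none rose and 2 fell. Of 16 other measured genes of fatty acid transport and binding 5 were higher and 6 lower. CAV1, the caveolar protein caveolin-1 (5.83 ± 0.11), and FABP3, the heart-type fatty acid binding protein (4.31 ± 0.10), were the most changed of them, while CD36 fell. On withdrawal 2 of the 16 rose and 4 fell, and at 2% O2 1 rose and none fell. The shares of all genes in these comparisons were those given above beside the PPARA targets.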

How the data were processed

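RNA from 13 flasks was measured on Affymetrix HuGene arrays. The authors deposited log2 values in a single table. The submitters' processing notes name RMA, and values between 2.68 and 14.5 show the log2 scale. The RMA version is not given in the sources used here. RMA corrects background, normalizes between arrays and summarises probes, and it shrinks folds near the floor. The table names no scan date or batch, so batch and group cannot be told apart, and it holds no raw signals for another background correction. The number of arrays limits the precision.

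Of 28926 rows the platform annotation gave 1 symbol to 19310, several to 1752 and none to 7864. The highest mean row stood for each of 685 genes with several rows, which left 18377 genes. Groups were compared in limma 3.58.1 (R 4.3.3; lmFit, eBayes) in 1 fit over 4 groups, with Benjamini-Hochberg adjustment within each of 5 comparisons, after tests on simulated data.

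The members and lists were chosen with earlier results of these data known. Array values were given for members called with a 2-fold or larger difference from HepG2, for the 5 most changed called members of each comparison within HepG2S1, and for PPARA, PPARGC1A, CPT1A, CPT2, ACADM, ACADVL, HADHA, HADHB, EHHADH, ACOX2, HSD17B4 and CD36. Of the other lists at most 2 of the most changed called genes per comparison were named, with PDK4, ANGPTL4 and PLIN2. Alternatives were other moderation, the compared groups or the HepG2S1 arrays alone, a filter at the 33rd percentile, scaling to the 75th percentile, a repeated quantile normalization, the mean over rows, array weights, leaving out each array and an adjusted p of 0.01.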

Additional observations from a re-analysis of the deposited data

Results flagged for a closer look

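ACOX2 in HepG2S1 with sorafenib had 1 array, replicate 2, at a log2 value of 6.01, while the other 3 arrays were exactly equal at 6.22, so that the whole range of the group lay between that array and the rest. It was the 1 group found among 32 member groups of 4 arrays examined for an array far from the others, and chance gives about 1 in 20. Exactly equal values on 2 or more arrays occurred in 5556 of 18377 genes (30.2%) and in 6 of 32 members, and at least 3 of the 4 sorafenib arrays were exactly equal in 178 of the 18377 genes.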

How the results depend on the processing

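No paired analysis was possible because the labels number the flasks through the whole series and the replicate numbers used here only name samples in accession order. No member reversed its direction where it was called. Against HepG2, the counts of members higher and lower stayed within 1.5 times the main count under every alternative run. On withdrawal the count higher, 1, became 2 with trend and robust moderation, with the 2 groups alone and with the 10 HepG2S1 arrays alone, and 5 with array weights, and it ranged from 1 to 2 when an array was left out. The count lower, 4, became 7 with array weights and 2 at an adjusted p of 0.01, and ranged from 2 to 5 when an array was left out. At 2% O2 the count lower, 3, became 5 with trend and robust moderation, with the HepG2S1 arrays alone and with array weights, 7 with repeated quantile normalization and 10 with 75th percentile scaling. Between 2% O2 and withdrawal the count lower, 4, became 7 with 75th percentile scaling and 8 with array weights. The cause was not tested. SLC25A20 and HADHB each gained a call on withdrawal in 8 of 21 alternatives, and ECI1 gained one at 2% O2 in 10 of 21. Signal near the floor limits the folds of CD36, ACOX2 and PLIN2 in HepG2S1 and leaves ACADL without a measured level.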

Other observations

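Receptors, coregulators and energy sensors around PPARA were mixed. Of 20 measured, 6 were higher and 9 lower in HepG2S1 with sorafenib than in HepG2 (limma, adjusted p under 0.05). The shares among all genes were 30.1% higher and 27.2% lower. PPARG, the PPAR family member best known from fat cells, was higher (1.02 ± 0.06 on the log2 scale, SE) and rose further on withdrawal (0.27 ± 0.06). NRIP1, a corepressor of nuclear receptors, was lower (-1.08 ± 0.08) and rose on withdrawal (0.39 ± 0.08). At 2% O2 1 of the 20 rose, PRKAA2, a catalytic subunit of AMP-activated protein kinase (0.45 ± 0.09), and 4 fell, led by ACACA, acetyl-CoA carboxylase (-0.36 ± 0.07). Among all genes 8.99% rose and 6.17% fell at 2% O2.

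Of 12 measured peroxisome biogenesis genes 4 were higher, 2 lower and 6 not called in HepG2S1 with sorafenib against HepG2. Among all genes 30.1% were higher and 27.2% lower in that comparison. PEX7, the import receptor for proteins such as the thiolase ACAA1, was higher (1.59 ± 0.11), as was PEX2, a membrane ubiquitin ligase subunit (1.00 ± 0.07). PEX3, which inserts peroxisomal membrane proteins, rose on withdrawal (0.37 ± 0.10) and at 2% O2 (0.71 ± 0.10).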
